A study of Mus musculus with 6 samples.

Results

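Receptor genes through which hormones, nerves and nutrients adjust insulin release were examined in MIN6B1 cells after an siRNA against circHIPK3. The 10 genes belong to the G protein-coupled receptors: Glp1r, Gipr, Gcgr, Ffar1, Gpr119, Adra2a, Chrm3, Ghsr, Sstr3 and Galr1. Every non-control probe whose accession led to one of these symbols was taken, which gave 11 of the 39429 probes on the array, 2 of them for Glp1r and 1 for each of the other genes. All 11 were well above background on all 6 arrays and none was saturated, so each receptor has a measured level in both groups. After choice of a single probe per gene the comparison ran over 25777 genes and unnamed transcripts.

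MIN6B1 is a mouse insulinoma line that makes and secretes insulin and stands in for beta cells. Cells in DMEM-based growth medium with fetal calf serum received either siGFP, an siRNA against green fluorescent protein that served as the control, or the circHIPK3 siRNA, and RNA was taken after 48 h. circHIPK3 is a circular RNA formed from Hipk3 transcripts. Both groups were exposed to the transfection reagent Lipofectamine RNAiMax, each held 3 samples, and each sample was hybridised with Cy3 to its own Agilent array. The labels name replicates without saying whether they were separate cultures, so p-values measure no more than how these samples scatter, and that scatter may be technical. Neither agonist treatment nor receptor protein is part of the series, which measured RNA only.

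The receptors other than GHSR are grouped here into 3 signalling classes. The receptors for GLP-1, GIP and glucagon, together with the lipid amide receptor GPR119, act through Gs to raise cAMP, which promotes insulin granule release by way of protein kinase A and EPAC2. The fatty acid receptor FFAR1 and the muscarinic receptor CHRM3 act through Gq and phospholipase C, which releases stored calcium. The adrenergic receptor ADRA2A, the somatostatin receptor SSTR3 and the galanin receptor GALR1 act through Gi/o and restrain secretion. The ghrelin receptor GHSR, known in islets mainly from delta cells, was not placed in a class.

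The arrays had 75th percentiles of the processed signal between 2939 and 3669 units, and 77.7% to 83.5% of probes were well above background. The file headers record 2 scans, the first with the 3 siGFP arrays and circHIPK3 siRNA replicate 1, the second with circHIPK3 siRNA replicates 2 and 3. All 10 beta cell markers listed for the check of the cell type were well above background on every array, and their summed level ranged from 336 to 359 times the 75th percentile in siGFP and from 314 to 358 in circHIPK3 siRNA. Of the markers used for other cell types, Hhex (delta cell), Sox9 (duct), Cdh5 (endothelium) and Pdgfra (fibroblast) were not well above background on any array. The other 27 markers on the array were above it on all 6, except Ptf1a (acinar cell), which was above it on 2. The alpha cell markers Gcg, Ttr, Irx1 and Irx2 summed to 36.7 to 59.4 in siGFP and 27.0 to 44.2 in circHIPK3 siRNA. No marker on any list passed the test. All samples are labelled as the MIN6B1 line, so these marker signals are not read as other cell types. Their relation to the receptor values was not tested.

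None of the 10 receptor genes rose or fell at an adjusted p under 0.05 by limma with Benjamini-Hochberg adjustment over all 25777 features, where 1.18% of all features passed (303, of which 165 were lower and 138 higher, or 0.64% and 0.535%). The balance of directions moved with the setting, from 218 lower and 44 higher with quantile normalization and 403 and 204 with median scaling to 594 and 965 with array weights and 351 and 1386 without circHIPK3 siRNA replicate 1. Before adjustment 3 receptor genes had a limma p under 0.05, Ghsr, Gipr and Glp1r. All 3 were lower. Of all features 21.1% reached that level, 6.51% with a lower signal. In 4 of the 10, Sstr3 in addition to those 3, every circHIPK3 siRNA array lay below every siGFP array, and 9.38% of all features showed that pattern. Separation in either direction held for 25.9% of all features. No receptor gene had all circHIPK3 siRNA arrays above all siGFP arrays, against 16.6% of all features. Changes are given as circHIPK3 siRNA minus siGFP on the log2 scale with their standard error (SE) from limma, and levels are log2 signals relative to the array's 75th percentile. The median change of the 10 was -0.07, with 5 below and 5 above zero, beside 0.08 for all features. Because dividing by the array median moved the median of all features by -0.10, the position relative to it is given where the sign matters. In bulk RNA, fewer cells with a transcript and less of it per cell cannot be told apart.

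**Figure D1:**
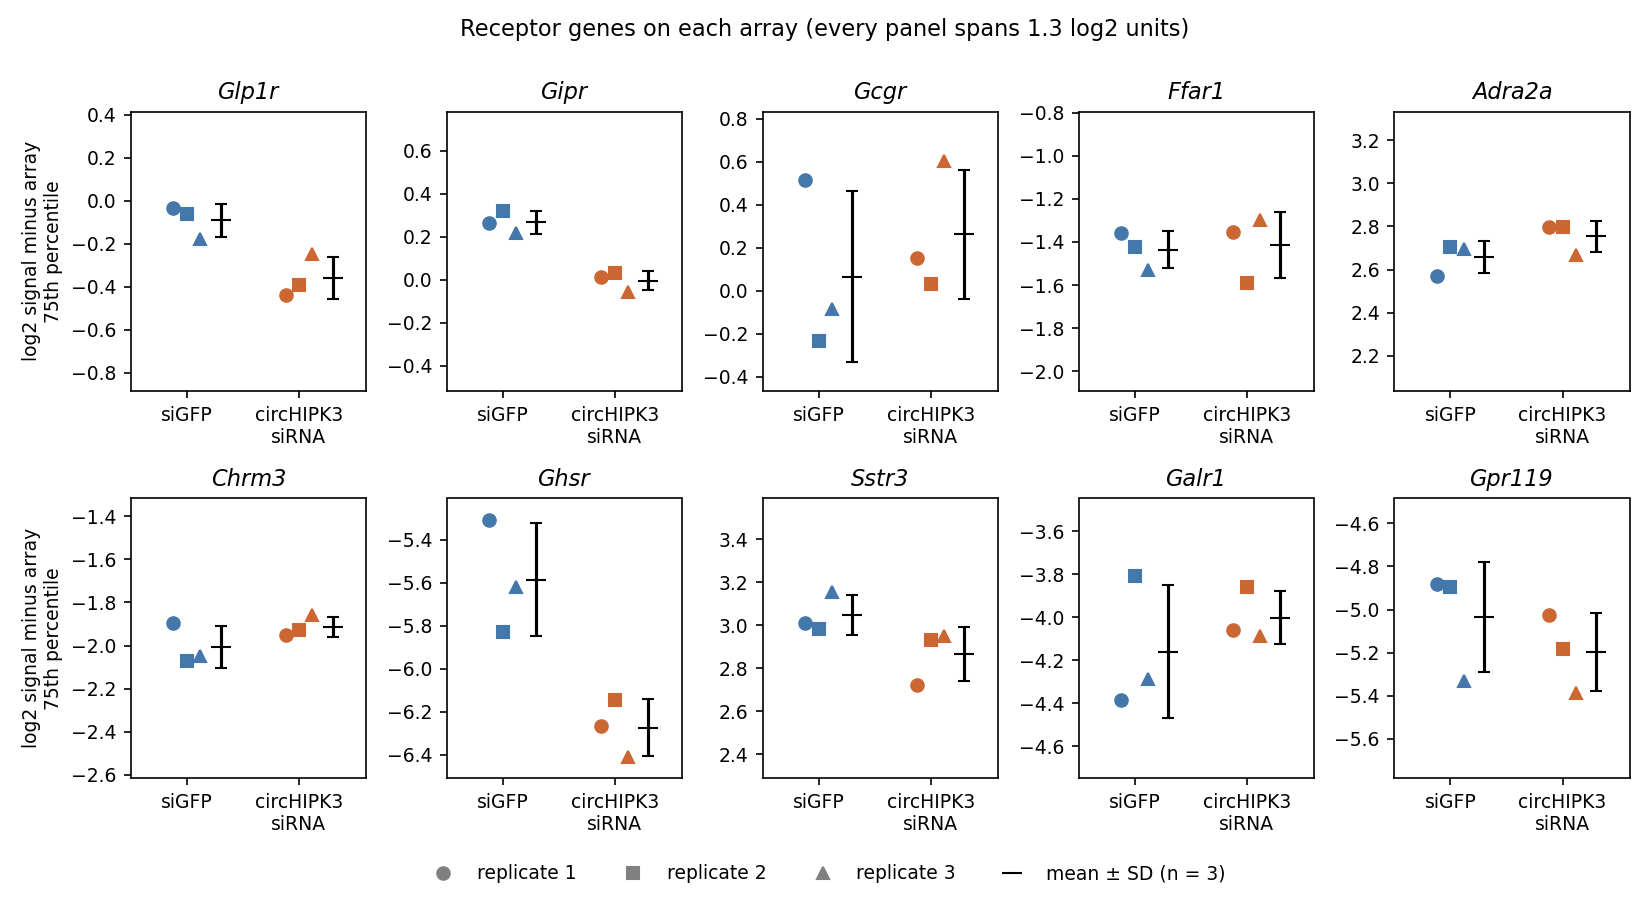
Log2 signal minus the array's 75th percentile for the 10 receptor genes, with a point for each array, shaped by replicate number, and the mean with its SD (n = 3) beside each group. The circHIPK3 siRNA arrays lie wholly below the siGFP arrays for Glp1r, Gipr, Ghsr and Sstr3, and the groups overlap for the other 6 genes.

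The 250 bases upstream of the annotated start are shown for Ghsr and Glp1r, those of the 3 receptor genes with an unadjusted p under 0.05 that have an entry in the RefSeq promoter table (GRCm38.p6). The table matched 8 of the 10 receptor genes by symbol. Capitals mark matches on either strand to 5 motifs. For the cAMP response element (CRE) the core letters TGACG and the full element TGACGTCA were searched, so a full element would also hold the core. The E-box, which basic helix-loop-helix factors bind, was searched as CANNTG. The GC box bound by factors of the Sp family was searched as GGGCGG, and the TATA box as TATAAA. The Glp1r sequence is chr17:30901617-30901866 and the Ghsr sequence is chr3:27371101-27371350, both on the plus strand and written 5′ to 3′.
Glp1r: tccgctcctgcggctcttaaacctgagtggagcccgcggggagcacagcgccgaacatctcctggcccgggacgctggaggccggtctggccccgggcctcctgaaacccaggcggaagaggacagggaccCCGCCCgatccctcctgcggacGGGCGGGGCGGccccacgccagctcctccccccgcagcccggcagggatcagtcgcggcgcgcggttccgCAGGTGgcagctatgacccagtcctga
Ghsr: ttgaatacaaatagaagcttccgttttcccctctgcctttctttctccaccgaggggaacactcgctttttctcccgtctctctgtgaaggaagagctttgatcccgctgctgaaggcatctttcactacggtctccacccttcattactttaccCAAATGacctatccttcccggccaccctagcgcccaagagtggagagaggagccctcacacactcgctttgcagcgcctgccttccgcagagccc
The Glp1r sequence had a G and C content of 73.2% and held 3 GC boxes, starting 119, 97 and 92 bases before the start site, of which the last 2 overlap, and an E-box 27 bases before it. The Ghsr sequence had a G and C content of 54.0% and held an E-box 95 bases before the start and none of the other motifs. Over all 32851 windows of this length in the table, 32.7% held the GC box letters, 66.2% the E-box, 17.8% the CRE core, 1.55% the full CRE and 12.4% the TATA letters. Among the 9 windows of the 8 receptor genes, since Sstr3 has 2 annotated starts, 3 held a GC box, 5 an E-box, 3 a CRE core, 1 a TATA box and 0 a full CRE. A match describes letters and is not evidence of binding.

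Among the Gs-coupled receptors, both incretin receptors had lower signals after circHIPK3 siRNA, by amounts that missed the adjusted threshold. Glp1r, which encodes the receptor for GLP-1, gave levels of -0.03, -0.06 and -0.18 on the siGFP arrays and -0.44, -0.39 and -0.25 on the circHIPK3 siRNA arrays. The nearest pair of arrays, siGFP replicate 3 and circHIPK3 siRNA replicate 3, still lay apart in the direction of the group means. The change was -0.27 ± 0.10 (SE), a ratio of 0.830 with a 95% interval of 0.705 to 0.978 (limma adjusted p = 0.197). The second Glp1r probe, read from a fit over all kept probes, gave -1.83, -1.90 and -1.98 in siGFP and -2.27, -2.30 and -2.14 in circHIPK3 siRNA, again lower without overlap. Its change was -0.33 ± 0.10 (SE, limma adjusted p = 0.129). Both probes report the same gene in the same RNA, so the second is a technical repeat and not a further sample.

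Gipr encodes the receptor for GIP, the other incretin hormone. Its levels were 0.27, 0.32 and 0.22 in siGFP and 0.01, 0.03 and -0.05 in circHIPK3 siRNA. The gap between the groups was wider than the range within either of them. The change was -0.27 ± 0.09 (SE), a ratio of 0.829 with a 95% interval of 0.715 to 0.960 (limma adjusted p = 0.166). Relative to the median of all features the changes were -0.36 for Gipr and -0.35 for Glp1r. Within the first scan, where circHIPK3 siRNA replicate 1 faces all 3 siGFP arrays, the changes were -0.35 ± 0.14 (SE) for Glp1r and -0.25 ± 0.13 (SE) for Gipr. Leaving out each array in turn gave -0.32 to -0.23 for Glp1r and -0.30 to -0.24 for Gipr, and neither passed (limma adjusted p of 0.240 to 0.369 and of 0.144 to 0.363).

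The other 2 receptors of the Gs class had overlapping groups. Gcgr, the glucagon receptor gene, had the largest SD of the 10 within each group (0.40 in siGFP and 0.30 in circHIPK3 siRNA, n = 3), with levels of 0.52, -0.24 and -0.09 in siGFP and 0.15, 0.03 and 0.60 in circHIPK3 siRNA. A single array stood high in each group. The change of 0.20 ± 0.23 (SE) did not pass (limma adjusted p = 0.638), and its 95% interval ran from a ratio of 0.791 to one of 1.66, so that neither a modest fall nor a rise of that size could be told from the control at this precision. Single arrays moved it from 0.03 (without circHIPK3 siRNA replicate 3) to 0.42 (without siGFP replicate 1). Gpr119, whose receptor responds to oleoylethanolamide and related lipids, lay at -4.88, -4.90 and -5.33 in siGFP and at -5.02, -5.18 and -5.39 in circHIPK3 siRNA. Its change was -0.16 ± 0.16 (SE, limma adjusted p = 0.572, ratio 0.894 with a 95% interval of 0.691 to 1.16). Within the first scan alone it was 0.01 ± 0.22 (SE), so the sign of this change rests on the arrays of the second scan.

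Ffar1 and Chrm3, the genes placed here in the Gq class, had overlapping groups. Ffar1, also known as Gpr40, which encodes the receptor for long-chain fatty acids, had levels of -1.36, -1.42 and -1.53 in siGFP and -1.35, -1.59 and -1.30 in circHIPK3 siRNA. The circHIPK3 siRNA arrays spanned both ends of the siGFP range, and the change was 0.02 ± 0.11 (SE, limma adjusted p = 0.928), a ratio of 1.02 with a 95% interval of 0.844 to 1.22. The sign of so small a value turned under 7 of 19 alternatives. Chrm3, the gene of the M3 receptor through which acetylcholine strengthens insulin release, gave -1.89, -2.07 and -2.05 in siGFP and -1.95, -1.93 and -1.86 in circHIPK3 siRNA. Here siGFP replicate 1 lay inside the range of the other group. The change of 0.09 ± 0.10 (SE, limma adjusted p = 0.601, ratio 1.07 with a 95% interval of 0.910 to 1.25) was 0.01 relative to the median of all features.

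**Figure D2:**
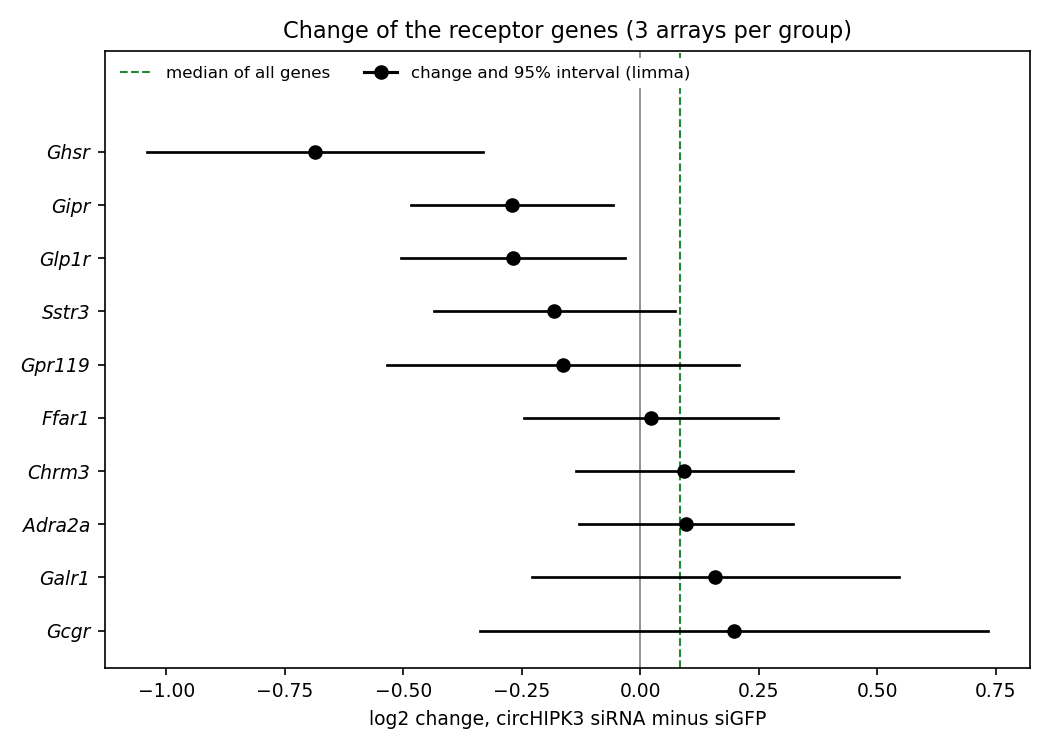
Log2 change of each receptor gene, circHIPK3 siRNA minus siGFP, with its 95% interval from limma (3 arrays per group, horizontal lines) and the median change of all features (dashed line, 0.08). The intervals of Ghsr, Gipr and Glp1r lie below zero before adjustment for the 25777 features, and the intervals of the other 7 genes include zero.

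None of the 3 Gi/o-coupled receptor genes passed the test, and the groups were separate for Sstr3 and overlapped for the other 2. Sstr3, whose receptor is known from the primary cilia of beta cells, gave 3.01, 2.98 and 3.15 in siGFP and 2.72, 2.93 and 2.95 in circHIPK3 siRNA. The groups were narrowly separated, and circHIPK3 siRNA replicate 1 was the lowest array. The change was -0.18 ± 0.11 (SE, limma adjusted p = 0.360), with a ratio of 0.882 and a 95% interval of 0.739 to 1.05, and it was -0.33 ± 0.14 (SE) within the first scan. Adra2a, the receptor gene through which noradrenaline suppresses insulin release, had levels of 2.57, 2.70 and 2.70 in siGFP and 2.80, 2.80 and 2.67 in circHIPK3 siRNA. Its change of 0.10 ± 0.10 (SE, limma adjusted p = 0.583, ratio 1.07 with a 95% interval of 0.914 to 1.25) was 0.01 relative to the median of all features. Galr1 lay at -4.39, -3.81 and -4.28 in siGFP and at -4.06, -3.86 and -4.09 in circHIPK3 siRNA, so that the second group lay inside the range of the first. The change was 0.16 ± 0.17 (SE, limma adjusted p = 0.599, ratio 1.12 with a 95% interval of 0.853 to 1.46), and it was 0.04 without siGFP replicate 1 and 0.33 without siGFP replicate 2.

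Ghsr, the ghrelin receptor gene, differed most between the groups. Its levels were -5.31, -5.83 and -5.62 in siGFP and -6.27, -6.15 and -6.41 in circHIPK3 siRNA. All 3 circHIPK3 siRNA arrays lay below the lowest siGFP array. The change was -0.69 ± 0.15 (SE), a ratio of 0.621 with a 95% interval of 0.486 to 0.795 (limma adjusted p = 0.0747), so that Ghsr missed the threshold by the smallest margin of the 10. It passed in 3 of 19 alternatives, namely quantile normalization (-0.94, limma adjusted p = 0.0498), median scaling (-0.79, limma adjusted p = 0.0366) and array weights (-0.64, limma adjusted p = 0.0425), within a range of adjusted p from 0.0366 to 0.354 over all 19. With the authors' value table, which lay close to quantile normalization, Ghsr did not pass (-0.94, limma adjusted p = 0.0603). A two-sided exact permutation test gave p = 0.10 for Ghsr, Glp1r, Gipr and Sstr3, a value below which this design cannot go.

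The Ghsr probe is dim. Its processed signal was 74.2, 64.5 and 68.8 units in siGFP and 46.7, 51.8 and 40.3 units in circHIPK3 siRNA, where the lowest signals counted as well above background lay between 21.9 and 27.3 units per array. The raw spot medians before any subtraction were 133, 119 and 124 against 107, 106 and 95 units, with local background medians of 35 to 39 and 27 to 33 units. With normexp background correction and an offset of 50 the change was -0.31 ± 0.13 (SE, limma adjusted p = 0.346). Ghsr and Gpr119 lie among the 6444 dimmest features, whose median change was 0.28. The part of brightness in the Ghsr value was not tested. Within the first scan the change was -0.68 ± 0.22 (SE). Of the delta cell markers, Sst and Rbp4 were measured and Hhex was not above background, and the summed level of the list was 0.041 to 0.050 in siGFP and 0.048 to 0.060 in circHIPK3 siRNA. The relation of these markers to the Ghsr value was not tested.

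The genes with a symbol whose array-to-array pattern was nearest to that of Ghsr were Lhx9, Smad3 and Coro1a. Their deviations from their own means over the 6 arrays differed from those of Ghsr by a root mean square of 0.076, 0.084 and 0.085, where the deviations of Ghsr itself had a root mean square of 0.38. With 6 arrays and 2 groups this describes the likeness and nothing more.

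**Figure D3:**
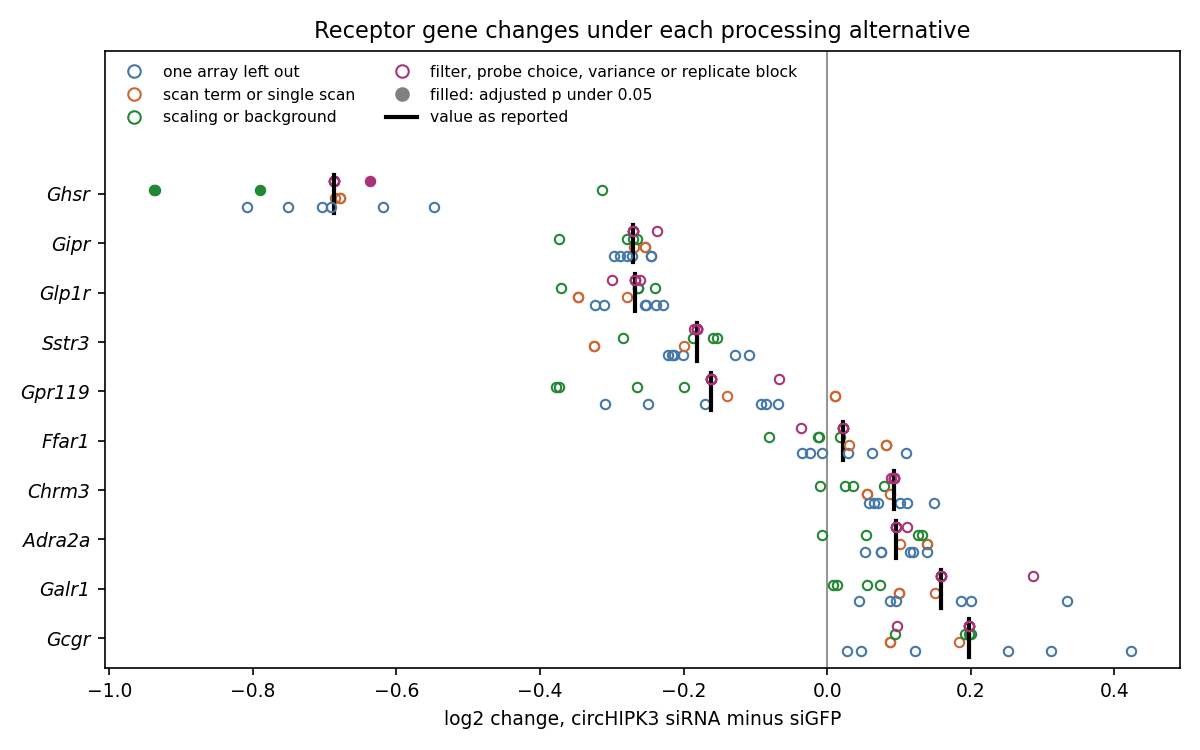
Log2 change of each receptor gene as reported (black bars) and under 19 processing alternatives (circles, coloured by kind, filled where the limma adjusted p was under 0.05). Filled circles occur for Ghsr alone, in 3 alternatives, and Ghsr, Gipr, Glp1r and Sstr3 stay below zero in all 19.

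Relatives were grouped for the somatostatin, alpha-2 adrenergic, muscarinic, galanin and free fatty acid receptors, and no measured relative there passed the test. Relatives of Glp1r, Gipr, Gcgr, Gpr119 and Ghsr were not grouped in this way. None of the 4 other somatostatin receptor genes, with changes of 0.12 to 0.65, passed. All 4 were above zero while Sstr3 was below it, a contrast that was not tested. The median change was 0.28 among the 6444 dimmest features and -0.01 among the 6445 brightest, which include Sstr3. Mean siGFP levels were -4.81, -7.27, -1.89 and 2.35 for Sstr1, Sstr2, Sstr4 and Sstr5, against 3.05 for Sstr3. Sstr5, the nearest of the 4 to Sstr3 in level, had a change of 0.12 ± 0.11 (SE). The part of brightness in the contrast was not tested. The 2 other alpha-2 adrenergic genes gave -0.30 and 0.21, the 2 other galanin genes -0.32 and 0.21, and the 3 other free fatty acid receptor genes 0.10 to 0.22. Of the 4 other muscarinic genes, Chrm1 was not well above background on any array, and the remaining 3 gave -0.01 to 1.19 without passing. The largest of these values belonged to Chrm5 (1.19 ± 0.51, SE), Chrm2 (0.87 ± 0.28, SE) and Sstr2 (0.65 ± 0.20, SE), named after they were seen. Chrm5 was above background on 4 of the 6 arrays and the other genes on 3, so these values rest partly on signals not above background. The filter kept each of them through a single group, whose arrays were all above background. It thus favours a difference toward that group, and the signs are not read as a result.

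In a list of 55 further islet receptors, 50 were measured, 1 fell, none rose and 49 did not pass. At an unadjusted p under 0.05 there were 5 lower and 7 higher, beside 6.51% and 14.6% of all features. Sstr2 and Chrm2 are among the 7 higher, and the filter kept each of them through a single group. The list's median change was 0.14, beside 0.08 for all features, and 0.64% of all features were called lower. The gene that fell was Cckar, which encodes a cholecystokinin receptor. Its processed signal was 137, 130 and 151 units in siGFP and 64.0, 73.7 and 76.6 units in circHIPK3 siRNA, without overlap. The change was -1.07 ± 0.14 (SE), 2.09-fold lower, with a limma adjusted p of 0.0326. The call was lost in 9 of 19 alternatives, among them the removal of each siGFP array in turn and of circHIPK3 siRNA replicates 2 and 3 (limma adjusted p of 0.0831 to 0.161 over those 5), and scan as a fixed block (-1.23, limma adjusted p = 0.133), within a range of adjusted p from 0.00972 to 0.165 over all 19. With normexp the change was -0.66 ± 0.12 (SE, limma adjusted p = 0.0388). The 3 receptor genes of that list with the brightest probes did not pass. They were Vipr1, a receptor for VIP and PACAP (-0.12 ± 0.10, SE), the alpha-1 adrenergic gene Adra1b (-0.01 ± 0.14, SE) and the somatostatin receptor gene Sstr5 (0.12 ± 0.11, SE).

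None of the 12 measured ligand genes out of 13 listed passed by limma. At an unadjusted p under 0.05 there were 3 of them, 1 lower and 2 higher, where 21.1% of all features were (6.51% lower and 14.6% higher). The 2 with the smallest p were those of the hormones somatostatin, Sst (0.30 ± 0.12, SE, limma adjusted p = 0.209), and pancreatic polypeptide, Ppy (0.52 ± 0.21, SE, limma adjusted p = 0.222). Gcg, named after its value was seen, encodes proglucagon, the precursor of the ligands of both Gcgr and Glp1r. It had a mean processed signal of 71786 units in siGFP and 51054 units in circHIPK3 siRNA, and its change of -0.59 did not pass (limma adjusted p = 0.292).

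The measured genes of the lists that carry the receptor signals onward did not pass either, beside 1.18% of all features called and 21.1% at an unadjusted p under 0.05. In the Gs, cAMP and protein kinase A arm, 22 of 25 listed genes were measured and 0 were called by limma, with 1 lower and 1 higher at an unadjusted p under 0.05. These were Pde1c, a phosphodiesterase that degrades cyclic nucleotides (-0.43 ± 0.13, SE, limma adjusted p = 0.136), and Creb1, the transcription factor phosphorylated by protein kinase A (0.30 ± 0.09, SE, limma adjusted p = 0.132). For both the groups did not overlap. In the Gq, phospholipase C and protein kinase C arm, 14 of 15 were measured and 0 were called by limma, with 2 lower and 1 higher at an unadjusted p under 0.05, near the 21.1% of all features. The smallest p belonged to Plcb3, a phospholipase C activated by Gq (-0.46 ± 0.14, SE, limma adjusted p = 0.147), and to the atypical protein kinase C gene Prkcz (-0.33 ± 0.11, SE, limma adjusted p = 0.161).

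In the Gi/o arm with the G protein beta subunits and RGS proteins, 14 of 15 were measured and 0 were called by limma, with 0 at an unadjusted p under 0.05, beside 21.1% of all features. The inhibitory G protein subunit gene Gnai3 lay at -0.21 ± 0.10 (SE, limma adjusted p = 0.258), with circHIPK3 siRNA below siGFP on every array, and the RGS gene Rgs9 at -0.25 ± 0.12 (SE, limma adjusted p = 0.289). Of 12 genes for receptor desensitisation and accessory proteins, all measured, 0 were called by limma, with 1 lower and 1 higher at an unadjusted p under 0.05, beside 21.1% of all features. These were the beta-arrestin gene Arrb1 (0.32 ± 0.11, SE, limma adjusted p = 0.172) and Pclo, which encodes the presynaptic scaffold protein piccolo (-0.28 ± 0.12, SE, limma adjusted p = 0.231). The list medians were 0.14 for the ligands, 0.0043 for the Gs arm, 0.03 for the Gq arm, -0.04 for the Gi/o arm and 0.0049 for desensitisation, beside 0.08 for all features.

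**Figure D4:**
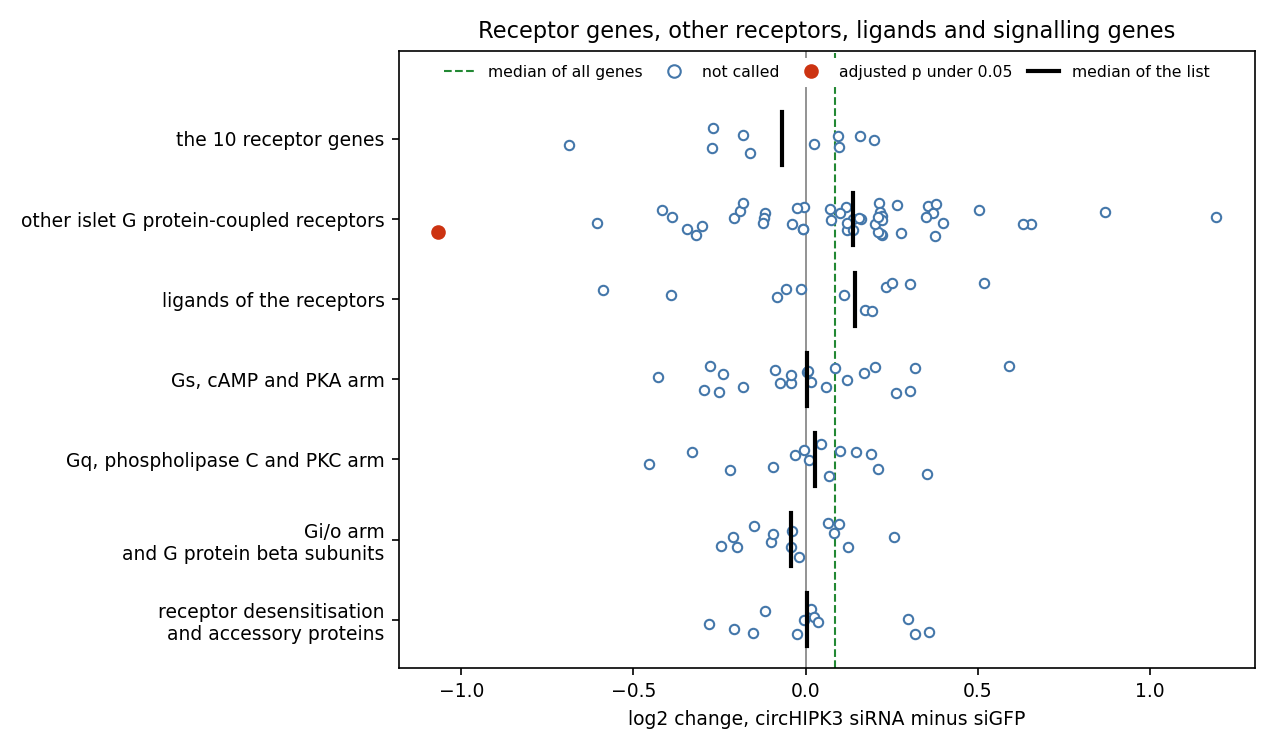
Log2 change, circHIPK3 siRNA minus siGFP, of the 10 receptor genes and of the measured genes of 6 lists, with a circle per gene, the list median (black bar) and the median of all features (dashed line, 0.08). The only gene past an adjusted p of 0.05 is Cckar, at -1.07 in the list of other receptors (filled).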

How the data were processed

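Amplified Cy3-labelled RNA of each sample was read on its own Agilent array, 6 in all, per the labels' protocols. Per the file headers, Feature Extraction 11.0.1.1 produced the deposited scanner tables, which hold a background-subtracted intensity, raw medians and flags per spot. The deposited value table holds the authors' log2 values, whose columns have medians of 9.80 and track that array's log2 processed intensity, so scale and direction are as measured. How it was normalized and filtered stays unknown. The number of arrays limits the precision.

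Log2 processed intensities were scaled by subtracting each array's 75th percentile over 43020 non-control spots. Flagged outlier spots were left out. A probe was kept if the scanner called it well above background on every array of either group (31380), and the brightest stood for each gene. Names came from matching accessions to a RefSeq table, which named 27234 probes. The files name another build, so the only coordinates printed are those of the RefSeq promoter windows in their own build.

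Groups were compared with limma 3.58.1 in R 4.3.3, fitted and adjusted over all features (threshold 0.05), after a test on simulated data. Figures used matplotlib 3.10.9. Some listed cell type markers are not reported here. Members and lists were chosen with earlier results of these data known. Named genes were all 10 receptor genes, up to 3 called or else the 2 genes of smallest p per list, the 3 brightest other receptors and the 3 genes nearest in pattern to the receptor gene of smallest p. The replicate numbers were not used as pairs in the main fit. Deviations of same-numbered arrays correlated at -0.02, 0.27 and -0.13, and those of differently numbered arrays at -0.35 to 0.29. With so few arrays these values cannot settle whether the samples were paired.

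Alternatives were other scalings, normexp on the raw medians, the value table, 2 filters, the median of all probes, 2 variance settings, the replicate number as a block, scan as a fixed or random block, the first scan alone, and each array left out.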

Additional observations from a re-analysis of the deposited data

How the results depend on the processing

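Over 19 alternatives for each of the 10 receptor genes, 3 of 190 values were called, all for Ghsr and all lower, and 11 had the opposite sign, all in genes that did not pass. The count of receptor genes called was 1 with quantile normalization, median scaling and array weights, and 0 in every other alternative, including each array left out (0 to 0). The values with the opposite sign were those of Ffar1 with quantile normalization (-0.013), median scaling (-0.080), the value table (-0.011), array weights (-0.036), and without siGFP replicate 3, circHIPK3 siRNA replicate 1 or circHIPK3 siRNA replicate 3 (-0.035 to 0.11 when each array was left out), Adra2a and Chrm3 with median scaling (-0.0066 and -0.010), and Gpr119 with scan as a fixed block and in the first scan alone (0.012 in both). The cause was not tested.

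The count over all features was 607 with median scaling, 185 with the value table, 622 with trend and robust variance, 1559 with array weights and 124 with scan as a random block. By limma it was 0 with no filter, with the replicate number as a block, with scan as a fixed block and in the first scan alone (5631, 5134, 2677 and 2872 at an unadjusted p under 0.05). Leaving out each array gave 0 to 1737, the highest when circHIPK3 siRNA replicate 1 was removed, so that each group had its own scan. The replicate block and scan as a fixed block each left 0 called genes among the other islet receptors, where the call of Cckar was lost at changes of -1.07 and -1.23 (limma adjusted p = 0.0856 and 0.133). The lists of ligands and signalling genes had 0 called by limma under both of these and with quantile normalization and median scaling, the settings run for lists. The slide of each array is unknown here, and the scan was used as the block in its place. With 3 arrays per group and dim probes for Ghsr, Gpr119 and Galr1, changes of the size seen for these genes are measured with standard errors of 0.15 to 0.17.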
